A study of Mus musculus with 12 samples.

Results

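The comparison set microglial exosomes of chronic rmTBI against those of acute rmTBI: the 3 arrays of rmTBI at 42 days post-injury (DPI) against the 3 arrays at 3 DPI, 6 of the 12 arrays of the series. Exosomes are small membrane vesicles that carry RNA between cells, and microglia are the resident phagocytes of the brain. All groups were male C57BL/6 mice, 12 weeks old when purchased. Their age at sampling is not stated, and age and time since injury cannot be told apart here. The rmTBI mice received 4 closed-head impacts, 48 h apart (repetitive mild traumatic brain injury, rmTBI), while sham mice received no impact. Exosomes were prepared from cortex and hippocampus and captured with an antibody to CD11b, a surface protein of microglia that other myeloid cells also carry. The labels name the injured hemisphere and the methods name tissue of both sides. The labels do not say whether the 3 samples of a group came from separate mice or from pools, so the p-values below measure only the spread between these samples.

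MicroRNAs (miRNAs) are short RNAs that pair with messenger RNAs, mostly through bases 2 to 8 at the 5′ end, the seed, and lower the output of those messages. miRNAs with the same seed form a family and can act on overlapping sets of targets. Many are cut from clustered precursors that are transcribed together, and each precursor can give a 5p and a 3p arm. Brain tissue is rich in let-7, miR-9, miR-29, miR-30, and in miRNAs of the imprinted Dlk1-Dio3 region, and exosomes of a cell carry a selection of its miRNAs.

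The results turn on a few sequences, given here as RefSeq lists them for the mouse build GRCm38.p6, 5′ to 3′, with the seed in capitals. Sequences were found for 418 of the 485 miRNAs that were compared. The first set holds the largest rises from 3 to 42 DPI among miRNAs detected on all 6 arrays, with miR-30a-5p and miR-27b-3p for 2 families that rose.
miR-3968: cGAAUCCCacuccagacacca
miR-6366: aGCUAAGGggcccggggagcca
miR-136-5p: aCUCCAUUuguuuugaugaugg
miR-329-3p: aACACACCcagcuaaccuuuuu
miR-376a-3p: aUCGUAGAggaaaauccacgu
miR-98-5p: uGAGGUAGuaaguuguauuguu
miR-101c: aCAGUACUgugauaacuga
miR-219a-5p: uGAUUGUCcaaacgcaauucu
miR-154-5p: uAGGUUAUccguguugccuucg
miR-411-3p: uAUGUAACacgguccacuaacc
miR-30a-5p: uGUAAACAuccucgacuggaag
miR-27b-3p: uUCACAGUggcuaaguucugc
The rises miR-219a-2-3p and miR-30b-5p belong to the same group. The second set holds the largest falls among miRNAs detected on all 6 arrays, with miR-7042-5p named alone.
miR-5622-3p: cUUAGCUGgguagugguggugc
miR-1306-3p: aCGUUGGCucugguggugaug
miR-6385: gCAAGGAUgacagagaggaag
miR-6354: uGCCCUGGggaucaggucucu
miR-7011-5p: aGGAGGAUgggagagggaggugu
miR-3098-5p: uCCUAACAgcaggaguaggagc
miR-8117: gCUCGUGUggaacagaagggg
miR-7081-5p: aGAGGAGGgugcucggccggggauua
miR-183-5p: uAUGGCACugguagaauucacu
miR-6238: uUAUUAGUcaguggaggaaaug
The third set holds the miR-200 family with miR-141, which has 2 seeds that differ by 1 base and whose 5 members fell, and the miR-148 and miR-152 family, whose 3 members share a seed and were higher at 42 DPI.
miR-200b-3p: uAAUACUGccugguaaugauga
miR-200c-3p: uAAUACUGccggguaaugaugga
miR-429-3p: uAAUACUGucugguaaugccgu
miR-200a-3p: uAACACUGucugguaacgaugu
miR-141-3p: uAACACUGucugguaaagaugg
miR-148a-3p: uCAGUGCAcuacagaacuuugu
miR-148b-3p: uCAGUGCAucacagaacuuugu
miR-152-3p: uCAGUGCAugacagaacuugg

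Each array gave a background-corrected intensity for every spot. Signals of the probes for the same miRNA were added up and scaled to the 75th percentile of their array, taken over the 230 miRNAs that all 12 arrays detected. Values are given as log2 of this scaled signal, with a floor of -5.06. Detection required that, for at least 1 probe, a share above 0.5 of its usable spots stood well above background. The 3 arrays of 42 DPI were brighter than those of 3 DPI. Before scaling, the 75th percentile was 401, 619, and 451 at 3 DPI and 2936, 1385, and 1858 at 42 DPI, in scanner units. The local background lay between 28 and 31 on these 6 arrays. Detected mouse miRNAs numbered 326, 392, and 416 at 3 DPI and 579, 490, and 546 at 42 DPI, so that every array of 42 DPI detected more miRNAs than any array of 3 DPI. The array of 3 DPI replicate 1 lay on slide 1 with the sham arrays, while the other 5 arrays lay on slide 2. Log2 values correlated at 0.92 to 0.98 among the arrays of 3 DPI, at 0.99 to 1.00 among those of 42 DPI, and at 0.77 to 0.94 between the groups. The median SD of a miRNA was 0.42 at 3 DPI and 0.10 at 42 DPI on the log2 scale. The part of the array brightness in the results below was not tested. A brighter array and a larger yield of exosomal RNA cannot be told apart here, and scaled values show only how a miRNA moved relative to the others on its array.

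**Figure D1:**
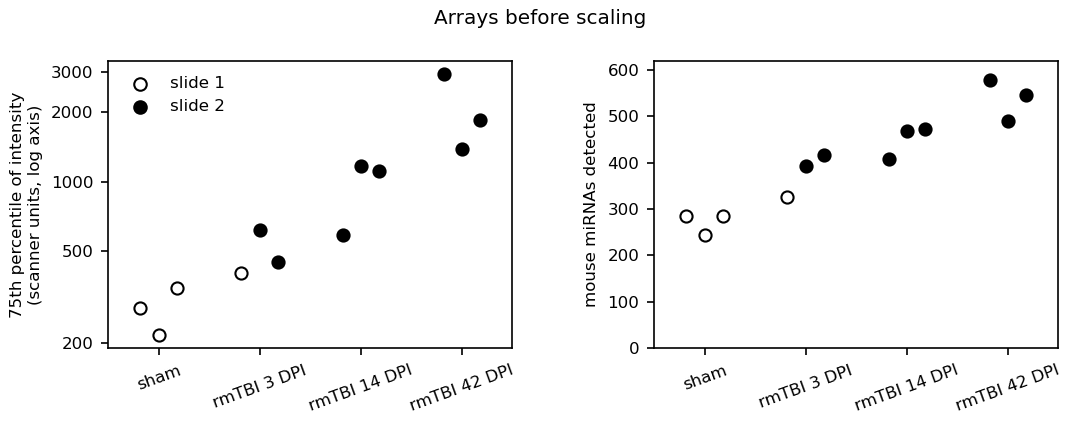
The left panel plots the 75th percentile of the intensity before scaling (scanner units, log axis) and the right panel the number of mouse miRNAs detected, with 1 point per array, open for slide 1 and filled for slide 2. The 3 arrays of 42 DPI, at 1385 to 2936 scanner units, lay above the 3 arrays of 3 DPI, at 401 to 619.

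Of 485 miRNAs that could be read, 185 changed from 3 to 42 DPI at an adjusted p under 0.05 (limma over all 12 arrays with Benjamini-Hochberg adjustment), which is 38.1% of those tested. Of these, 69 rose (14.2%) and 116 fell (23.9%). More than 2-fold changes were found for 19 of the rises and 101 of the falls. The lowest adjusted p was 0.0172. Of the 185, 131 were detected on all 6 arrays, 44 of them rises and 87 falls. Of the 485, 302 were detected on all 3 arrays of 3 DPI and 483 on all 3 of 42 DPI. A scaled fall is thus no sign that detection fell. For 321 miRNAs (66.2%) the 3 values of 42 DPI did not overlap those of 3 DPI, with 139 (28.7%) higher and 182 (37.5%) lower at 42 DPI, and all 185 changed miRNAs were among them. The median difference of the 485 miRNAs was -0.09 on the log2 scale. The split into rises and falls moved with the scaling: rises made up 37.3% of the calls, 66.8% when each array was scaled by its 75th percentile over all miRNAs, 60.4% after quantile normalization, and 99.7% without scaling. The median difference of all 485 miRNAs was then 0.23, 0.10, and 1.32. Without scaling and floor, 32 of the 116 falls were still lower in mean log2 intensity at 42 DPI, and all 69 rises were higher. Signs were also compared under 4 alternatives. These were the 75th percentile over all miRNAs, that over miRNAs detected on all 6 arrays, quantile normalization, and the log2 table that the authors deposited. In all 4, all 69 rises and 112 of the 116 falls kept their sign. The median difference was higher in each of the 4 than in the main fit, which left little room for a rise to turn. Fewer rises held with other signals. Of the 69, 43 stayed above 0 with the scanner software's total signal and 35 with normexp, another background correction.

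The comparison was repeated with 3 DPI replicates 2 and 3 only, so that all 5 arrays compared shared slide 2. All 185 differences kept their sign. This was fixed in advance and is no support, since the groups did not overlap for any of the 185. In the fit without 3 DPI replicate 1, 91 miRNAs passed (18.8%), of which 80 were among the 185. In a fit of the 5 arrays of slide 2 alone, 151 passed (31.1%), 75 higher and 76 lower, of which 118 were among the 185. Without 3 DPI replicate 3 only 38 passed, and without 42 DPI replicate 1 or 3 none did by limma at an adjusted p under 0.05, while 189 and 190 had an unadjusted p under 0.05. The main fit shares its estimate of the spread with the sham and 14 DPI arrays. The group mean of 14 DPI lay between those of 3 and 42 DPI for 180 of the 185 miRNAs, and sham lay nearer to 3 DPI than to 42 DPI for 182. The 14 DPI arrays themselves were split: replicate 1, with a 75th percentile of 588, lay nearer to 3 DPI for 166 of the 185, while replicates 2 and 3, at 1173 and 1116, did so for 9 and 12.

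**Figure D2:**
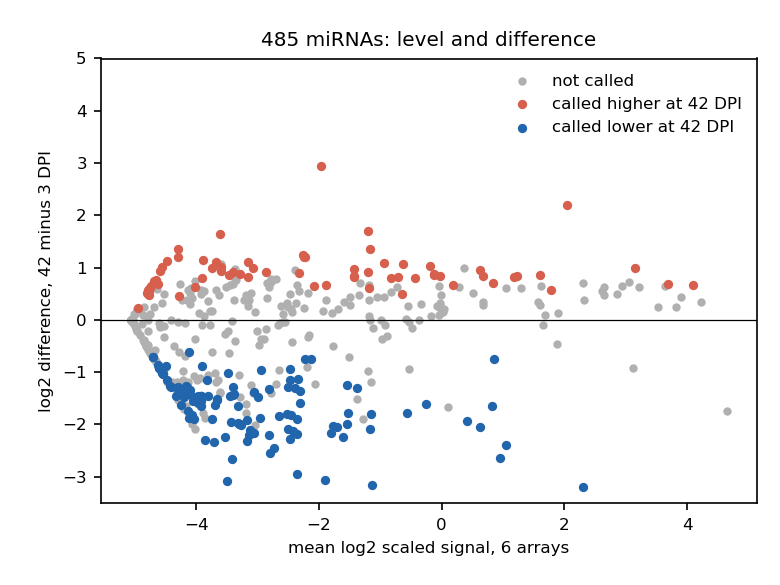
Each of the 485 points is a miRNA, with the mean log2 scaled signal of the 6 arrays on the horizontal axis and the log2 difference, 42 minus 3 DPI, on the vertical axis, colored where the adjusted p was under 0.05. The 69 rises and 116 falls spread over all levels, and the slanted lower left edge is set by the floor of -5.06; without scaling, 99.7% of the calls were rises.

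The miRNAs named next were detected on all 6 arrays. Of the 12 largest rises among them 8 passed without 3 DPI replicate 1, and of the 12 largest falls 4 did. The largest rise was that of miR-3968, read by probes for a late-registered mouse miRNA at chr11:115447969-115447989 on the minus strand. Its log2 scaled signal was -3.40, -3.52, and -3.40 on the 3 arrays of 3 DPI and -0.59, -0.40, and -0.47 at 42 DPI. The groups did not overlap, and the difference of 2.95 (SE 0.54, n = 3 arrays per group) had an adjusted p of 0.0172 by limma. This direction held for the probe intensities and not for the scanner software's total signal, a separate column of the same files. For most miRNAs the total was a fixed multiple of the summed probes, with a median of 0.212 to 0.276 over the 6 arrays. For miR-3968 the total was 1357, 1720, and 1924 at 3 DPI, where the summed probes gave 37.9, 54.1, and 42.8, and 532, 282, and 367 at 42 DPI, where they gave 1948, 1049, and 1341. The difference from the totals was -4.14 with an adjusted p of 0.00502 by limma, so the direction of miR-3968 depends on the column used, and the cause was not tested.

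miR-6366, another late-registered miRNA, at chr16:18165093-18165114 on the minus strand, gave 1.12, 0.69, and 1.06 at 3 DPI and 2.93, 3.49, and 3.01 at 42 DPI. All arrays of 42 DPI lay far above those of 3 DPI. The difference was 2.19 (SE 0.48, adjusted p = 0.0190 by limma) and 2.27 within slide 2.

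Among the next rises were 5 miRNAs of the Dlk1-Dio3 region of chromosome 12, an imprinted locus whose maternal copy gives rise to many miRNAs that are abundant in neurons. miR-136-5p, at chr12:109595331-109595352, gave -2.31, -1.40, and -2.42 at 3 DPI and -0.31, -0.48, and -0.24 at 42 DPI (difference 1.70, SE 0.40). miR-329-3p, at chr12:109713541-109713562, gave -4.32, -4.46, and -4.51 and then -2.43, -3.06, and -2.85 (difference 1.65, SE 0.36). All 3 arrays of 42 DPI were higher for both miRNAs, and 3 DPI replicate 2 was the nearest to them for miR-136-5p. miR-376a-3p, at chr12:109723824-109723844, gave -1.76, -1.80, and -1.98 and then -0.50, -0.58, and -0.40 (difference 1.35, SE 0.27, adjusted p = 0.0172 by limma). miR-154-5p rose by 1.03 and miR-411-3p by 1.01. These 5 rises did not overlap between the groups. For miR-329-3p and miR-411-3p, which lay within 1.2 log2 units of the floor at 3 DPI, the scanner total and the normexp background correction gave the other direction, with -0.15 and -0.22 for miR-329-3p and -1.82 and -0.49 for miR-411-3p.

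Both mature miRNAs of miR-219a that were listed as oligodendrocyte-enriched, known to promote the maturation of myelin-forming cells, were among the 12 largest rises of miRNAs detected on all 6 arrays. miR-219a-2-3p gave -2.77, -3.09, and -2.78 at 3 DPI and -1.58, -1.66, and -1.69 at 42 DPI, a difference of 1.24 (SE 0.23). miR-219a-5p gave -1.69, -0.93, and -0.89 and then -0.25, -0.15, and 0.10, a difference of 1.07 (SE 0.29). The slide 1 array of 3 DPI was the lowest for miR-219a-5p, and within slide 2 its difference was 0.81, with an adjusted p of 0.0626 by limma without that array. More vesicles of a cell type and more of a miRNA in each vesicle cannot be told apart in such preparations. miR-98-5p of the let-7 family rose by 1.20, miR-101c by 1.20, and miR-30b-5p by 1.09, with SEs of 0.32, 0.27, and 0.21 and without overlap between the groups.

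**Figure D3:**
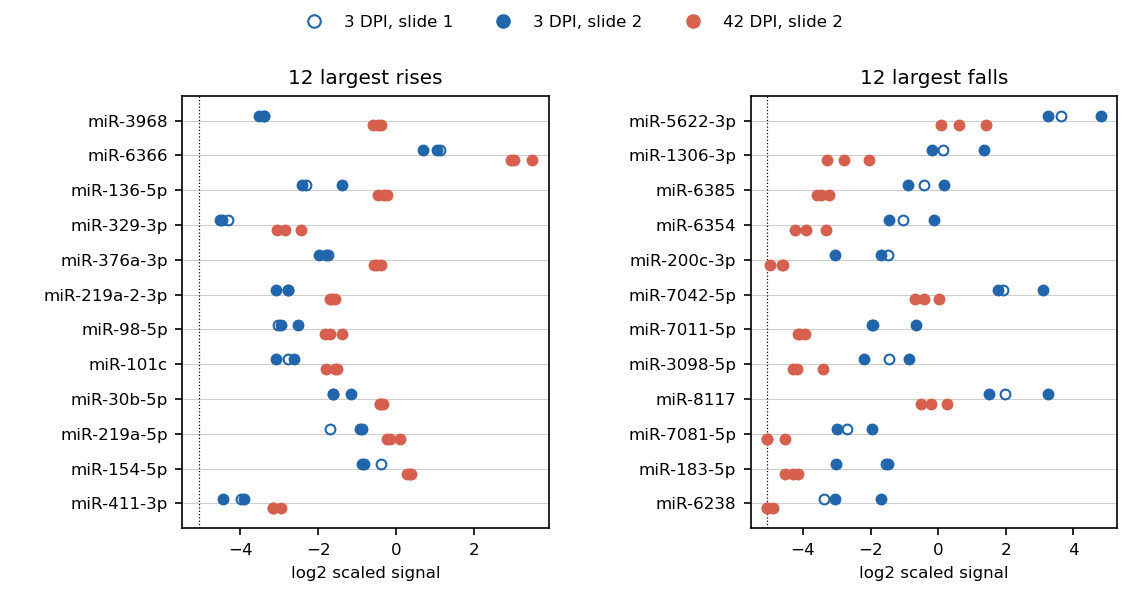
Each row is a miRNA, detected on all 6 arrays and among the 12 that rose or the 12 that fell most, and each point is its log2 scaled signal on 1 array, with 3 DPI in blue (open for the slide 1 array) and 42 DPI in red; the dotted line is the floor of -5.06. In all 24 rows the 3 arrays of 42 DPI lie on one side of the 3 arrays of 3 DPI, by mean differences of 1.01 to 2.95 for the rises and -3.20 to -2.30 for the falls; for miR-3968, miR-329-3p, and miR-411-3p the scanner total gave the other direction.

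miRNAs detected on no array of 3 DPI and on all 3 of 42 DPI numbered 65, and 0 were detected in the opposite pattern. Of the 69 rises, 44 were detected on all 6 arrays and 11 were detected on no array of 3 DPI. All rises not detected on every array of 3 DPI entered the comparison only through groups in which they were brighter. Their calls are therefore no support for a rise, and the size of the 11 has only a lower bound. miR-150-5p, a miRNA of lymphocytes, gave -4.71, -4.90, and the floor at 3 DPI and -3.43, -3.68, and -3.96 at 42 DPI, at least 2.28-fold higher. miR-1839-3p was at least 2.07-fold higher, miR-152-3p at least 1.89-fold, and miR-672-5p at least 1.58-fold. All 4 were higher on every array of 42 DPI. The totals of the scanner software and the normexp correction gave the other direction for all 4, so these differences rest on the scaled probe sums.

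The largest fall of all was that of miR-5622-3p, at chr2:152865105-152865126, a late-registered miRNA. Its log2 scaled signal was 3.63, 3.25, and 4.81 at 3 DPI and 0.08, 1.41, and 0.61 at 42 DPI. The highest array of 42 DPI lay well under the lowest of 3 DPI, and the difference was -3.20 (SE 0.99, adjusted p = 0.0370 by limma). The call was lost without 3 DPI replicate 1, at an adjusted p of 0.0675. miR-1306-3p, whose hairpin lies in the message of the miRNA-processing gene Dgcr8, at chr16:18284248-18284268, moved alike. It gave 0.14, -0.18, and 1.37 and then -3.28, -2.05, and -2.79, a difference of -3.15 (SE 0.99). For both, 3 DPI replicate 3 was the highest array and 42 DPI replicate 2 the highest of its group. Their intensities also fell before scaling, from a mean of 7838 to 3211 scanner units for miR-5622-3p and from 719 to 301 for miR-1306-3p.

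Other late-numbered miRNAs made up most of the 12 largest falls detected on all 6 arrays. miR-8097, detected on 2 of 3 arrays of 42 DPI and named after its values were seen, fell by 3.08. miR-6385 gave -0.41, -0.89, and 0.18 at 3 DPI and -3.24, -3.46, and -3.58 at 42 DPI, a difference of -3.05 (SE 0.59, adjusted p = 0.0172 by limma). miR-6354 fell by 2.94, miR-7042-5p by 2.64, miR-7011-5p by 2.55, miR-3098-5p by 2.45, and miR-8117 by 2.39. miR-7081-5p fell by 2.33 and miR-6238 by 2.30, and each was at the floor on 2 of 3 arrays of 42 DPI, so that these differences understate the change of the scaled signal. The other falls of the 12 were miR-200c-3p and miR-183-5p. miR-183-5p, a miRNA of sensory cells, gave -1.54, -1.49, and -3.03 at 3 DPI and -4.31, -4.14, and -4.54 at 42 DPI, a difference of -2.31 (SE 0.56). Of the 12, only miR-6385, miR-7011-5p, miR-200c-3p, and miR-6238 passed without 3 DPI replicate 1. In group mean, all 12 were lower at 42 DPI before scaling too, by -1.17 to -0.28 on the log2 scale. The unscaled arrays of the groups overlapped, however, for miR-6385, miR-200c-3p, miR-7042-5p, miR-7011-5p, miR-3098-5p, miR-8117, miR-183-5p, and miR-6238. For miR-7042-5p the summed probes gave 1530, 2113, and 3907 at 3 DPI and 2183, 1401, and 1159 at 42 DPI.

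The falls gathered in 3 lists. The first was the miR-200 family with miR-141, epithelial miRNAs known for lowering the transcription factors Zeb1 and Zeb2, of which all 5 members were read and all 5 fell (against 23.9% of all miRNAs), with a median difference of -2.15 against -0.09 over all miRNAs. miR-429-3p gave -0.30, -0.35, and -1.53 at 3 DPI and -2.78, -2.92, and -2.95 at 42 DPI (difference -2.15). miR-200b-3p gave -0.94, -0.92, and -1.97 and then -3.31, -3.48, and -3.57 (difference -2.18). miR-200c-3p gave -1.49, -1.69, and -3.04 and then -4.60, -4.62, and -4.99 (difference -2.66). In each of them 3 DPI replicates 1 and 2 were close together and replicate 3 was lower. miR-200a-3p fell by 1.83 and miR-141-3p by 1.29, with miR-141-3p at the floor throughout 42 DPI. The members with the seed AAUACUG, miR-200b, miR-200c, and miR-429, fell by 2.15 to 2.66, and the pair with AACACUG, miR-200a and miR-141, by 1.29 and 1.83. The family took 0.463% of the summed signal at 3 DPI and 0.0981% at 42 DPI. Without scaling, the intensities differed by only -0.64 to 0.29 on the log2 scale, and 2 of the 5 were then higher at 42 DPI. Without 3 DPI replicate 1, 2 of the 5 passed.

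The second list was named after the rodent Sfmbt2 cluster, miR-297, miR-466, miR-467, and miR-669, of which 12 of 60 array entries were read. miR-467a-3p belongs to the list by its number but was kept out of it, since its name is exchanged with that of another miRNA on 2 spots of each sham array. The arrays of 3 and 42 DPI do not carry this exchange. miR-467a-3p rose by 0.69, so the count of 0 rises below holds only without it. Of the 12, 8 fell and 0 rose, against 23.9% and 14.2% of all miRNAs, with a median of -1.86. The largest were miR-467f (-2.12), miR-466q (-2.11), miR-466h-3p (-2.09), and miR-669p-3p (-2.05). miR-467f gave -1.32, -1.98, and -0.81 at 3 DPI and -3.95, -3.10, and -3.42 at 42 DPI, with no overlap. RefSeq places miR-467f on chromosome 11 and miR-466q on chromosome 3, so the list is one of related sequences and not of a single locus, and near-identical members may share signal on the probes. Without scaling the differences of the 8 were between -0.10 and 0.72 and the median of the list was 0.04, so that this fall is one relative to the rest of the array. Without 3 DPI replicate 1 none of the 12 passed by limma, with a lowest adjusted p of 0.0517. All 12 were detected on every array of 42 DPI, and 8 on every array of 3 DPI.

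The third list was of the miRNAs numbered 3000 or above, most of them registered late from deep sequencing, and 155 of 936 were read. Of these, 68 fell and 5 rose, with a median of -1.18, against 48 falls and 64 rises among the other 330, with a median of 0.16. Without scaling the median of the late-numbered list was 0.35. Detection ran the other way: 96 of the 155 were detected on all 3 arrays of 3 DPI and 153 on all 3 of 42 DPI. Its share of the summed signal was 25.2%, 17.6%, and 34.5% at 3 DPI and 13.3%, 18.5%, and 14.9% at 42 DPI, so that the ranges overlapped. The 5 rises were miR-3968, miR-6366, miR-6412 (1.36), miR-3963 (0.67), and miR-5100 (0.58), of which miR-6412 was detected on 1 of 3 arrays of 3 DPI, named here after their values were seen.

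**Figure D4:**
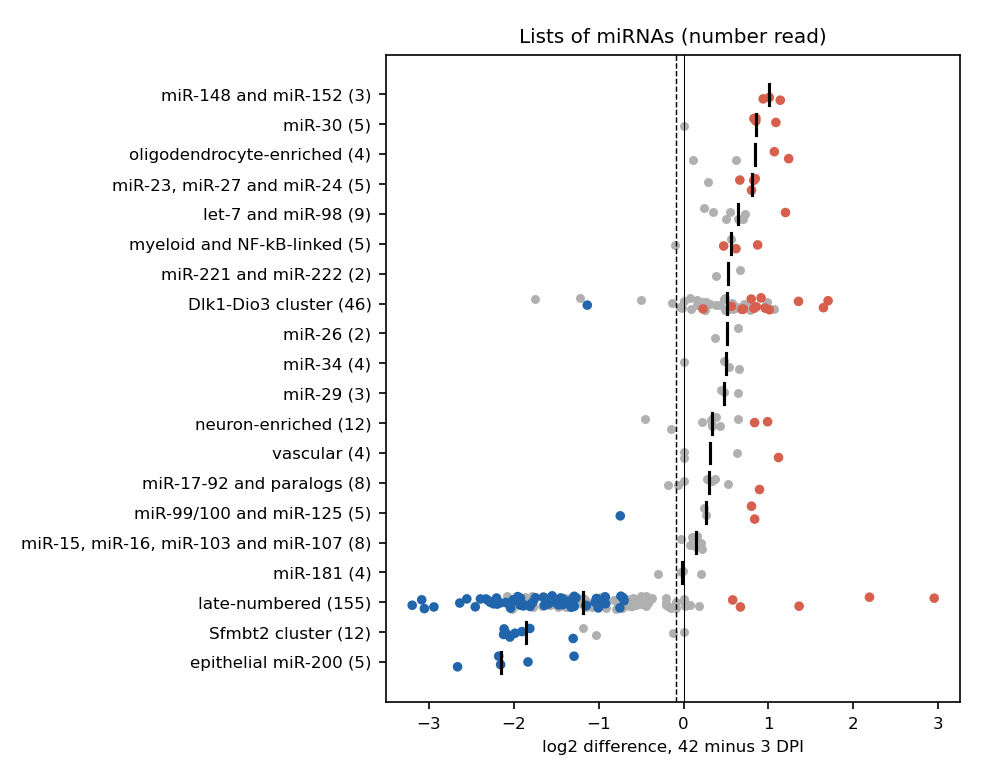
Each point is a miRNA that was read, placed by its log2 difference, 42 minus 3 DPI, in the row of its list, with the number read in brackets; colored points had an adjusted p under 0.05 (red higher, blue lower), black bars are list medians, and the dashed line is the median of all 485 miRNAs, -0.09. The medians of the miR-200, Sfmbt2, and late-numbered lists were -2.15, -1.86, and -1.18, and moved to -0.13, 0.04, and 0.35 without scaling, while those of the miR-148 and miR-152, Dlk1-Dio3, myeloid, vascular, and miR-17-92 lists, 1.01, 0.52, 0.55, 0.31, and 0.30, were -0.88, -0.61, -1.07, -0.93, and -0.58 with normexp.

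Among the families with higher values, the miR-30 family, which is broadly expressed and acts on differentiation and autophagy genes, had 4 of 5 members called higher, against 14.2% of all miRNAs, with a median of 0.85. miR-30a-5p gave 1.48, 1.14, and 0.91 at 3 DPI and 2.05, 2.02, and 2.01 at 42 DPI. miR-30c-5p gave 0.87, 0.97, and 0.45 and then 1.61, 1.64, and 1.52. Both rose without overlap, by 0.85 and 0.83, and miR-30e-5p by 0.85. The member that did not pass was miR-30d-5p, at -0.86, -1.25, and -1.40 and then -1.37, -0.89, and -1.25, a difference of 0.00 (SE 0.17). Without 3 DPI replicate 1, 3 of the 5 passed. The family's share of the summed signal went from 1.44% to 2.52%, with all 3 arrays of 42 DPI above those of 3 DPI.

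The miR-23, miR-27, and miR-24 miRNAs are made from paired clusters on chromosomes 8 and 13. They also had 4 of 5 members called higher, against 14.2% of all miRNAs, with a median of 0.80. miR-27a-3p gave -1.04, -1.04, and -1.31 and then -0.32, -0.28, and -0.31 (difference 0.83), and miR-27b-3p differed by 0.84, miR-23a-3p by 0.80, and miR-23b-3p by 0.66. miR-24-3p did not pass, at 0.29 (SE 0.22). Under the fit without 3 DPI replicate 1 only miR-27a-3p passed, at an adjusted p of 0.0417 by limma.

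The 3 members of the miR-148 and miR-152 family, known for acting on the DNA methyltransferase Dnmt1, were higher on every array of 42 DPI, with a median difference of 1.01. None of the 3 was detected on all arrays of 3 DPI, so they entered the comparison only through brighter groups, and their calls are no support for a rise. miR-148a-3p gave -4.62, -4.26, and -4.51 and then -3.17, -3.49, and -3.31. miR-148b-3p and miR-152-3p stayed at the floor throughout 3 DPI and differed by 0.94 and 1.01. The median turned to -0.49 with the scanner totals and -0.88 with normexp, and was 0.05 at double the floor, so the direction of this dim family depends on the background treatment.

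The let-7 family, known for holding back growth genes in mature cells, had all 9 members above 0, with a median of 0.64, and 8 of them without overlap, against 28.7% of all miRNAs. Only miR-98-5p passed the test, and it did not without 3 DPI replicate 1, at an adjusted p of 0.0626 by limma. let-7c-5p gave 4.26, 4.20, and 3.70 and then 4.46, 4.40, and 4.37, a difference of 0.35 (SE 0.27, adjusted p = 0.308 by limma). let-7f-5p differed by 0.72 (SE 0.28, adjusted p = 0.0713). let-7b-5p differed by 0.24 (SE 0.27) and by -0.03 under quantile normalization. The share of the family in the summed signal was 19.8%, 20.2%, and 12.5% at 3 DPI and 26.2%, 23.2%, and 24.5% at 42 DPI, and these did not overlap. A share of signal is not a share of molecules, since probes differ in brightness.

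The Dlk1-Dio3 list had 46 of 96 entries read, of which 13 rose and 1 fell, with a median of 0.52, and 29 lay without overlap above 3 DPI. The shares of all miRNAs called higher and lying without overlap above 3 DPI were 14.2% and 28.7%. On all 3 arrays of 3 DPI 35 of the 46 were detected, and without 3 DPI replicate 1, 7 passed. Calls among those not detected on every array of 3 DPI are no support for a rise. The list does not hold miR-154, whose arms lie in the same region and both rose. In the precursor cluster at chr12:109709065-109747914, 11 of 31 miRNAs read rose and 0 fell. The fall was that of miR-433-3p, named after its values were seen, which gave -1.83, -1.40, and -2.10 and then -3.18, -2.61, and -2.95 (difference -1.13, SE 0.23, adjusted p = 0.0172 by limma). The median of the list turned to -0.61 with normexp and was 0.00 with the scanner totals. miR-494-3p, which had the highest mean signal on the 6 arrays and comes from the same region, differed the other way without passing. It gave 5.06, 5.33, and 6.18 and then 3.52, 4.27, and 3.69 on a log2 scale on which the groups did not overlap. The difference was -1.75 (SE 0.62, adjusted p = 0.0513 by limma), and 0.27 without scaling. Its share of the summed signal fell from a mean of 12.3% to 3.72%, and that of the whole list from 15.3% to 8.13%.

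In the neuron-enriched list, 2 of 12 rose, a share near the 14.2% of all miRNAs, with a median of 0.34, and 0 passed by limma without 3 DPI replicate 1. miR-128-3p gave 2.73, 2.80, and 2.44 and then 3.83, 3.42, and 3.68 (difference 0.99), and miR-218-5p gave 0.39, 1.08, and 0.97 and then 1.59, 1.62, and 1.74 (difference 0.84). The groups did not overlap for either, and the adjusted p without 3 DPI replicate 1 was 0.0553 and 0.107 by limma. The activity-regulated miR-132-3p ran the other way without passing, at -0.45 (SE 0.43), with 3 DPI replicate 2 the highest array. Of the 4 oligodendrocyte miRNAs, the 2 of miR-219a rose and miR-338-3p, at 0.61 (SE 0.32), did not pass. The shares of these lists in the summed signal were 7.34% and 0.706% at 3 DPI and 10.4% and 1.14% at 42 DPI.

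Of 8 myeloid and NF-kB-linked miRNAs 5 were read, 3 of them detected on all arrays of 3 DPI, and miR-142a-5p and miR-223-5p were detected on none of the 6 arrays and miR-155-5p on 1. miR-142a-3p, made in blood-forming and myeloid cells, stayed at the floor throughout 3 DPI and gave -4.54, -4.28, and -4.50 at 42 DPI, where it was detected on all 3 arrays. miR-21a-5p, which rises in activated glia, gave -0.26, -0.37, and -1.04 and then 0.42, 0.28, and 0.25 (difference 0.87, adjusted p = 0.0431 by limma). miR-146a-5p, an inhibitor of NF-kB signaling, was detected on 1 of 3 arrays of 3 DPI and differed by 0.47, while miR-223-3p differed by -0.11 (SE 0.13). miR-142a-3p and miR-146a-5p were called higher. Neither was detected on all arrays of 3 DPI, so their calls are no support for a rise. The list's median was 0.55, and -1.07 with normexp, and its share of the summed signal was 0.234% at 3 DPI and 0.395% at 42 DPI. miR-21a-5p did not pass without 3 DPI replicate 1, at an adjusted p of 0.0541 by limma, and no other member of the list did.

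Among markers of vessels and blood, 1 of 4 vascular miRNAs was called higher, miR-143-3p of smooth muscle, by 1.11, too few to set against the 14.2% of all miRNAs. miR-143-3p was detected on all arrays of 42 DPI but not on all of 3 DPI, so its call is no support for a rise. The list's median was 0.31, and -0.93 with normexp. The endothelial miR-126a-3p differed by 0.62 (SE 0.23, adjusted p = 0.0599 by limma), while miR-126a-5p and miR-145a-5p were at the floor on all 6 arrays. The only erythroid miRNA read, miR-486a-5p, fell by 0.87 in scaled signal, from -4.11, -4.45, and -4.00 to the floor or within 0.1 of it. Detection ran the other way: miR-486a-5p was detected on all arrays of 42 DPI and not on all of 3 DPI. The scaled fall is thus no sign that it was lost at 42 DPI. miR-451a was detected on 2 of 3 arrays at each time, and miR-144-3p and miR-144-5p on none. The part of blood or vessel RNA in the results above was not tested.

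The remaining families moved little or in part. In the miR-99/100 and miR-125 list, miR-99a-5p rose by 0.84 and miR-100-5p by 0.80, while miR-125a-5p fell, from 1.34, 1.35, and 0.98 to 0.40, 0.50, and 0.55 (difference -0.75, adjusted p = 0.0172 by limma). miR-125b-5p, which has the same seed as miR-125a-5p, differed by 0.25 (SE 0.15), and the list's median was 0.26. In the miR-17-92 list of 8 read, 1 rose, miR-106b-5p by 0.89, a share near the 14.2% of all miRNAs. The median was 0.30, and turned to -0.58 with normexp and -0.32 with the scanner totals. None passed of the miR-29 (median 0.48), miR-26 (0.51), miR-221 and miR-222 (0.53), miR-34 (0.50), miR-15, miR-16, miR-103, and miR-107 (0.15), and miR-181 (-0.02) lists, which hold 23 miRNAs in all. All 3 of miR-29 lay without overlap above 3 DPI, against 28.7% of all miRNAs, and 29a gave 3.80, 3.80, and 3.45 and then 4.14, 4.02, and 4.22. No such gap was seen in the 8 of the list led by miR-15 and miR-16.

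Of 60 pairs of arms read, in which miR-138-5p, miR-30c-5p, and miR-7a-5p each recur, 35 had differences of the same sign. This count includes miR-1298, whose arms both differed by 0. In other pairs, such as that of let-7e, 1 arm differed by 0 and so could not match. In 5, both arms passed, and in the same direction: miR-136, miR-154, and miR-376a rose, while miR-574 and miR-7687 fell (named after their values were seen). In 24, only 1 arm passed, and 0 had calls in opposite directions. Base composition also went with the direction. The G and C content of the mature miRNA had a median of 45.5% in the 60 rises with a sequence and 61.9% in the 101 falls, against 52.4% over all 418. Across these 418 miRNAs, which share the 6 arrays and are not independent replicates, Spearman's rho between G and C content and the difference was -0.55 and Pearson's r was -0.48. Within the 135 late-numbered miRNAs rho was -0.02, and within the other 283 it was -0.43. The part of base composition in the differences was not tested.

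**Figure D5:**
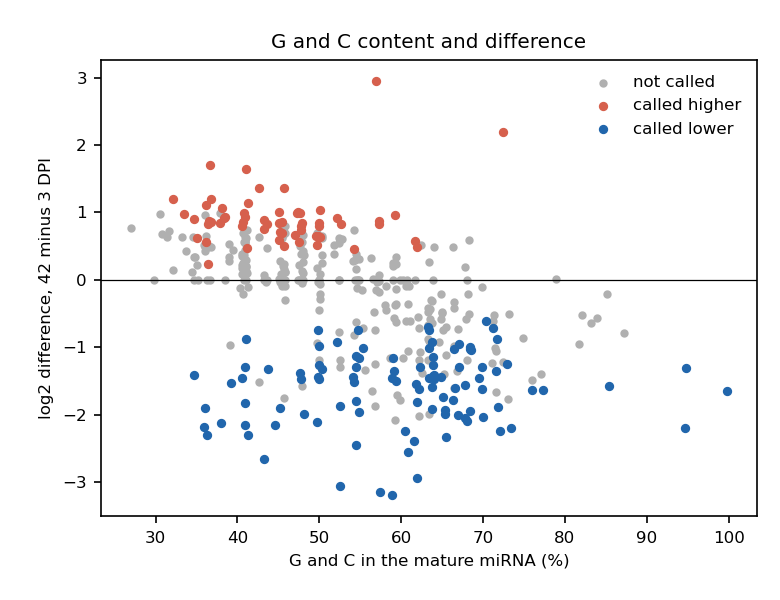
Each of the 418 points is a miRNA with a RefSeq sequence, placed by the G and C content of the mature miRNA (percent, moved sideways by up to 0.4 so that points do not hide each other) and by its log2 difference, 42 minus 3 DPI. The 60 rises have a median of 45.5% and the 101 falls one of 61.9%; the directions are those of the scaled signal.

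Of the miRNAs with the highest mean signal on the 6 arrays, miR-3963 and miR-467a-3p also rose. miR-3963 gave 3.99, 3.38, and 3.94 and then 4.14, 4.77, and 4.41 (difference 0.67, SE 0.21), close to one another at the edges of the groups. miR-467a-3p gave 3.23, 3.40, and 3.40 and then 3.98, 3.99, and 4.13 (difference 0.69, SE 0.19). On the sham arrays its name is exchanged with that of another miRNA on 2 spots per array, so the names were taken from the injury arrays. Without 3 DPI replicate 1 neither passed, at an adjusted p of 0.0517 for miR-3963 and 0.0647 for miR-467a-3p by limma. In the fit of the 5 arrays of slide 2 alone, miR-467a-3p passed at 0.0263 and miR-3963 did not, at 0.110.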

How the data were processed

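Exosomal RNA carried the dye cyanine 3 and was read on Agilent mouse miRNA arrays of a single color, 3 for each group. The authors deposited the scanner output of every array (Agilent Feature Extraction 10.7.1.1, per the labels) with an intensity per spot, background-corrected and not scaled between arrays. Each file holds 58594 spots, 56430 of them no controls, for 1881 mouse miRNAs and 4415 probes, with 0 saturated spots; the number of arrays limits the precision. The authors also deposited a log2 table, used as an alternative: each column has a median of -3.32, and its centring and scaling are not given in the sources used here.

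Control and outlier spots were left out, spots of a probe averaged, probes of a miRNA summed, and arrays scaled and floored (0.03 times the 75th percentile) as given above. The 486 miRNAs that every array of some group detected entered 1 limma fit of the 4 groups (version 3.58.1, R 4.3.3), with Benjamini-Hochberg adjustment at 0.05. One of them, miR-124-3p, is left out of the counts and not reported here, which leaves 485. The fit was tested on simulated data. The rule named the 12 largest rises and the 12 largest falls detected on all 6 arrays without overlap, 4 miRNAs detected only at 42 DPI, the 6 of highest mean, and all members of short lists or up to 4 examples of longer ones. The miRNAs, lists, and rules were chosen with earlier results of these data known. Bounds set the mean at 42 DPI against the lowest detected signal of each array of 3 DPI or the miRNA's own, whichever was higher. Alternatives were other signals, scalings, floors, filters, samples, blocks by slide or replicate number, the deposited table, the methods' t-test, and leaving out each array of 3 and 42 DPI; leaving out each sham and 14 DPI array was chosen after seeing the data.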

Additional observations from a re-analysis of the deposited data

How the results depend on the processing

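All 185 differences kept their sign in every fit of the main scaled values (other samples, blocks, arrays left out). This was fixed in advance and is no support, since the groups did not overlap for any of the 185. The number of miRNAs that passed moved from 185 to 27 with the scanner totals, 96 with the brightest probe, 413 with normexp, 294 without scaling, 41 at double the floor, 0 of 1880 without the filter (239 at an unadjusted p under 0.05), 78 in the 9 arrays of injured mice, 0 in the 8 arrays of slide 2 (200 unadjusted), 91 with slide as a block, and 285 with the deposited table. Leaving out 1 array gave 0 to 254: 91 without 3 DPI replicate 1, 38 without 3 DPI replicate 3, 0, 56, and 0 without 42 DPI replicates 1, 2, and 3 (189, 207, and 190 unadjusted), and 115 without sham replicate 2. The other settings gave counts within 1.5 times of 185. Of the 69 rises, 43 stayed above 0 with the scanner totals, 35 with normexp, and 59 at double the floor; of the 116 falls, 91, 116, and 116 stayed below 0.

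Blocking by replicate number gave 53 rises and 83 falls over 12 arrays and 0 calls over the 6 arrays (215 unadjusted, lowest adjusted p 0.0613 by limma). Deviations of 3 and 42 DPI arrays of the same number correlated at 0.26, -0.51, and -0.10, so the numbers were not taken to pair the samples.

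Directions that turned, on the log2 scale: with the scanner totals miR-3968 -4.14, miR-329-3p -0.15, miR-411-3p -1.82, miR-150-5p -0.71, miR-1839-3p -1.14, miR-152-3p -1.27, and miR-672-5p -0.30; with normexp miR-329-3p -0.22, miR-411-3p -0.49, miR-150-5p -0.71, miR-1839-3p -1.04, miR-152-3p -0.88, and miR-672-5p -1.03; without scaling miR-494-3p 0.27; after quantile normalization let-7b-5p -0.032; and in the deposited table let-7b-5p -0.071. The scanner totals were over 2-fold from their array's usual multiple of the probe sums for 49 to 74 of the detected miRNAs per array. The cause of these changes was not tested. A miRNA at the floor has no measured level, which limits the dim ones.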
